A study of Mus musculus with 12 samples.

Results

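Endothelial cells (ECs) of the adult mouse cortex that had been treated with MS-275 were set directly against ECs of the embryonic cortex (E13.5), without the untreated adult cells between them. The comparison took every gene that reached a normalized count of 10 in at least 2 of the 4 MS-275-treated and 3 E13.5 libraries, which was 15233 of the 21611 genes analysed and compares with 15452 genes under the same rule over all 12 libraries of the series. The treated cells were wild-type primary cortical ECs of adult male C57BL/6J mice (2 to 3 months old by the methods, 3 to 4 months by the results text of the study), given 10 µM MS-275 for 48 h in culture. The E13.5 cells were wild-type C57BL/6J primary cortical ECs of embryos at E13.5, a stage named by the days since conception, with no treatment on their labels. Cells of both ages had been freed of pial membrane or meninges, grown on collagen and used at the second passage, with CD31 and isolectin B4 as the purity markers and the cells of 1 litter pooled as 1 replicate. The groups differ in age and in treatment at once, and these cannot be told apart here.

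MS-275 (entinostat) inhibits class I histone deacetylases, enzymes that take acetyl groups off histones and in doing so help to keep genes silent. The embryonic cortex holds growing vessels among dividing neural progenitors, and Wnt ligands made by those progenitors induce barrier genes in brain ECs. The study asked whether blocking class I deacetylases in adult ECs restores embryonic vessel and barrier genes. The direct comparison asks which genes of the E13.5 cells were silent in the treated adult cells, and which genes of the treated cells had no counterpart at E13.5.

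The reads on genes numbered 20804279 to 33149580 in the MS-275-treated libraries and 25968359 to 31665255 in the E13.5 libraries. Libraries of 1 group were not evenly spread: MS-275 libraries 1 and 3 differed by a median of 0.14 (log2, absolute) over 11726 genes, libraries 2 and 4 by 0.10, and the other 4 pairs by 0.37 to 0.43, while E13.5 libraries 2 and 3 differed by 0.08 and each by 0.26 or 0.28 from library 1. Even the closest pairs differed by more than sampling noise (chi-square per gene of 5.76 to 33.5, against 100.1 to 249 for the other pairs), but libraries made separately from 1 culture could do so too, and the check does not show that they are independent. All 7 libraries were used as the labels number them, and the counts of calls are also given with the close libraries averaged into 2 MS-275 and 2 E13.5 values. The labels number 4 MS-275 libraries as separate replicates, whereas the methods text describes 2 replicates for this treatment. A figure legend of the study also gives 4. If the close libraries share a culture, n = 4 and n = 3 are too high and the SDs and p-values given with them too small. The labelled cell type was checked against its markers. The 32 endothelial identity genes summed to normalized counts of 37390 to 66990 in the treated libraries and 7088 to 7668 at E13.5, and the median gene of the list had a mean of 441 against 34.4. The 26 neural progenitor and radial glia genes had medians of 1.74 against 1195, and summed to 48490 to 61750 in the treated libraries, most of it from Vim, and 161300 to 163900 at E13.5. The E13.5 libraries therefore held strong neural RNA and little of several defining EC genes, and the part of this in each result below was not tested. In bulk RNA, fewer cells of a type and less RNA per cell cannot be told apart.

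The 2 groups differed at most genes. In limma, fitted over all genes on log2(normalized count + 1) with an adjusted p under 0.05, 4562 genes (29.9% of those tested) were higher in the MS-275-treated cells and 5882 (38.6%) were lower, so that 68.6% were called. With the close libraries averaged, 2932 were higher and 4301 lower. Of the called genes, 2880 were over 2-fold higher and 4481 over 2-fold lower, and past a log2 difference of 5 the calls were 173 higher and 969 lower. The median log2 difference over all genes tested was -0.14 (quartiles -1.45 and 0.77), and under quantile scaling, where it was 0.17, the split turned to 5945 higher and 4779 lower. A like level, with the whole 95% interval of the log2 difference between -1 and 1, was held by 4127 genes (27.1%), or by 2281 with the close libraries averaged, and 1352 of the 4127 (8.88% of genes tested) were called as well. In 4698 genes (30.8%) every treated library was above every E13.5 library and in 6056 (39.8%) below, so that 70.6% did not overlap. Neither a call nor a like level was reached by 2014 genes (13.2%). The filter itself let 1378 genes in through the E13.5 libraries alone and 688 through the treated libraries alone, and such genes had to differ.

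**Figure D1:**
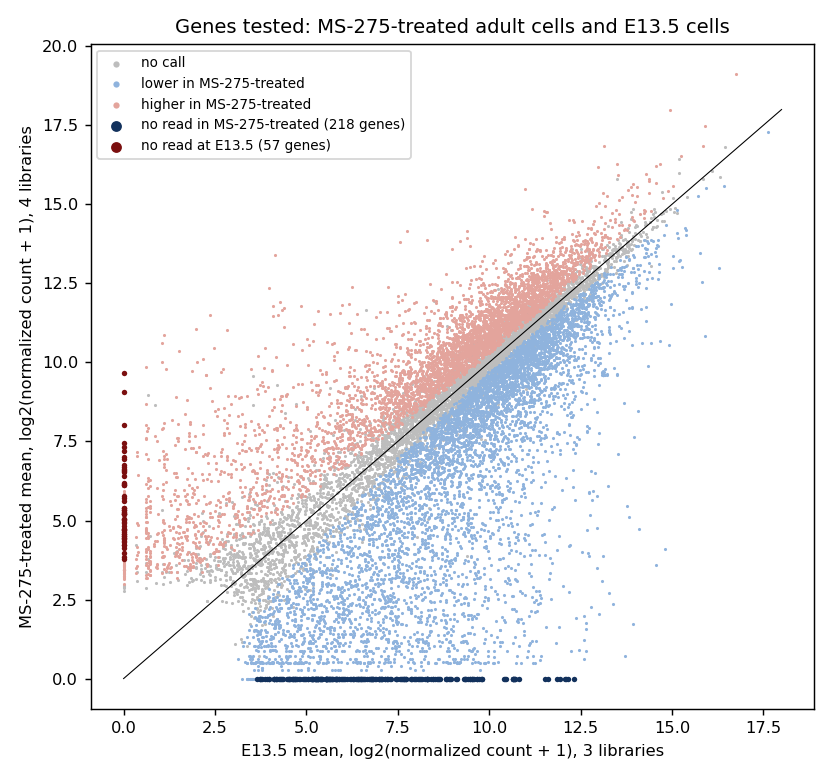
Mean level of each of the 15233 genes tested at E13.5 (x axis, 3 libraries) and in MS-275-treated cells (y axis, 4 libraries), both as log2(normalized count + 1), with genes called in limma coloured by direction and the line marking equal levels. The 218 genes with no read in the treated cells lie along the bottom and the 57 with no read at E13.5 along the left edge.

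The lists of genes that follow spread widely around that median. The neural progenitor, astrocyte, mural and fibroblast lists stood lowest, the neuron, imprinted, Wnt, matrix and cell division lists also lay below it, and the α-globin genes, Hox genes, endothelial identity, interferon response and antigen presentation stood highest.

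**Figure D2:**
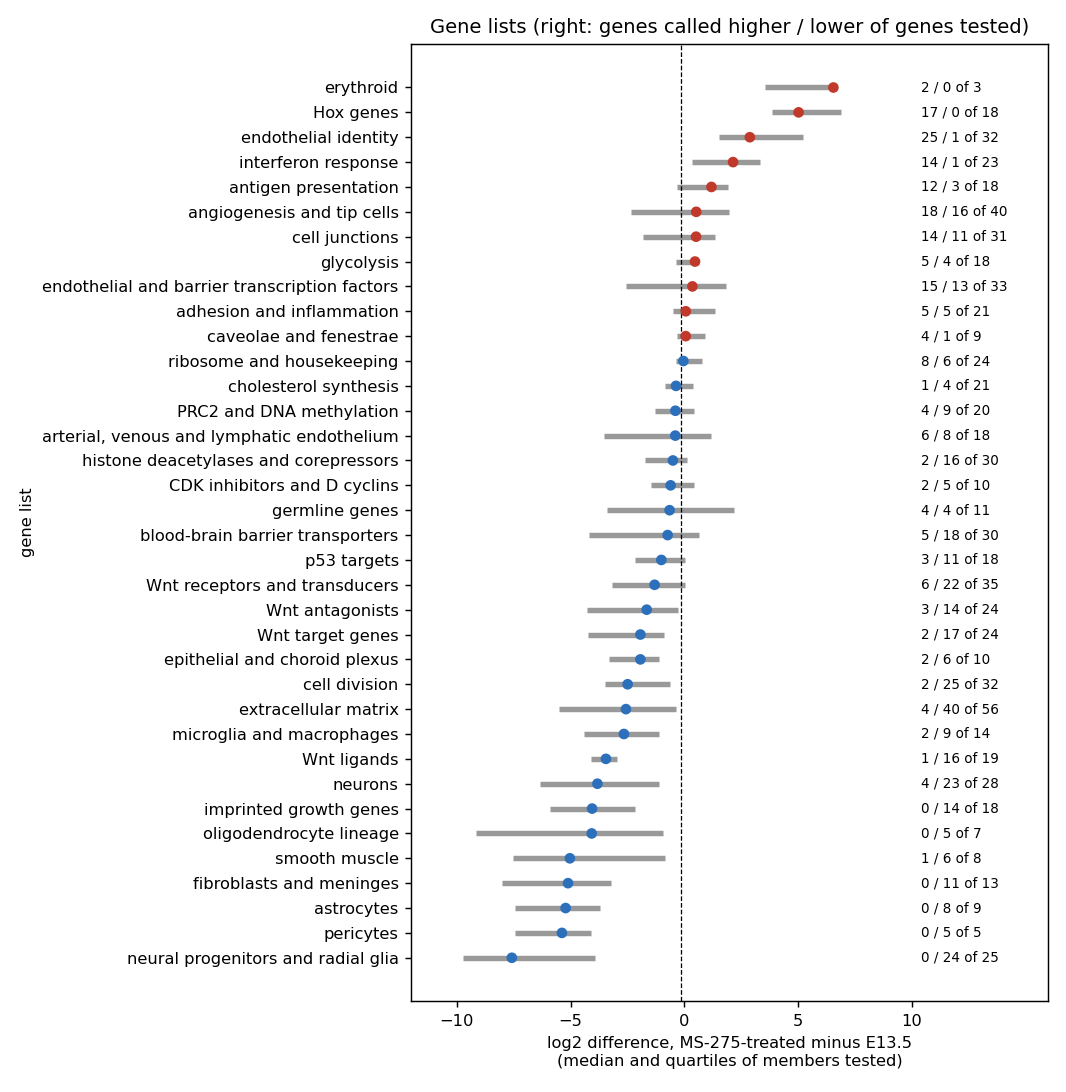
Median (point) and quartiles (bar) of the log2 difference, MS-275-treated minus E13.5, over the tested members of each gene list, with the counts called higher and lower in limma of those tested at the right. The dashed line is the median of all genes tested, -0.14, the neural progenitor list is lowest at a median of -7.58 and the Hox list has a median of 5.02 with 17 of 18 higher.

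The embryonic genes that were silent in the treated cells included neural transcription factors of high level at E13.5. Genes with no read in any of the 4 treated libraries and 10 or more normalized counts in each E13.5 library numbered 218 (1.43% of genes tested), of which 106 had an E13.5 mean of at least 100 and 19 of at least 1000. Ordered by normalized count, which also depends on transcript length, the highest included Sox11, Sox2, Fzd3, Sall1, Gpnmb, Gpc4, A2m, Olig2 and Ptn. Sox2, which keeps neural stem cells undifferentiated, had 0 reads in every treated library and normalized counts of 4052, 4878 and 4683 at E13.5. Sox11, a factor of newly formed neurons, had 0 in every treated library and 3669.5, 5839.8 and 5819.9 at E13.5. Every treated library lacked both genes and every E13.5 library held them. Against 3 reads over the treated group, Sox2 was at least 6221-fold and Sox11 at least 7005-fold higher at E13.5. Olig2, which directs ventral progenitors to motor neurons and oligodendrocytes, had 1728, 1853 and 1833 at E13.5. Sall1, a zinc finger transcription factor, had 2506, 4579.9 and 4799.8. The same class held Fzd3, a Wnt receptor used in axon guidance, at 3249, 4480.2 and 5153, Gpc4, a heparan sulfate proteoglycan of the cell surface, at 3822, 2617 and 2882, and Myl9, the regulatory myosin light chain of smooth muscle, at 2302, 1242 and 1276. These 3 were as silent in every treated library as Sox2 was. It also held A2m, a protease inhibitor, at 4689, 2025 and 2082, Gpnmb, a membrane glycoprotein, at 5115, 3138 and 2927, and Pmaip1 (Noxa), a p53 target that promotes cell death, at 1593, 1685 and 1567. Pmaip1 varied little among the E13.5 libraries, whereas A2m and Gpnmb were highest in library 1.

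Of the 218 genes, 180 also had no read in the 3 untreated adult libraries. Seen from those untreated cells, 887 genes had no adult read and at least 10 in each E13.5 library. After MS-275, 180 of the 887 still had no read, 405 had a mean under 1% of the E13.5 mean, 94 reached 10 in each treated library, and 43 had a treated mean at or above the lowest E13.5 library. The median of the 887 treated means was 1.38% of the E13.5 mean. Among the 94 were Des, the muscle intermediate filament, at 299, 436, 525 and 393 in the treated and 41.3, 118 and 119 in the E13.5 libraries (log2 difference 2.26 ± 0.40 (SE), adjusted p = 0.0014 in limma), and Wif1, a secreted Wnt inhibitor, at 52.9, 76.5, 103 and 84.6 against 127, 61.6 and 64.9 (95% interval of the log2 difference -0.88 to 0.78). Des was above E13.5 in every treated library, and the Wif1 groups overlapped.

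The gene starts at which silence was seen on either side are shown for 2 neural factors and for 3 genes of the treated cells. The 300 bases around each start, 250 before and 50 after, come from RefSeq on GRCm38.p6, and CpG pairs are in capitals because they are where DNA methylation acts. Sox11 (chr12:27342669-27342968, minus strand) and Sox2 (chr3:34649745-34650044, plus strand) had no read after MS-275. Cyp3a13 (chr5:137921570-137921869, minus strand), Lipn (chr19:34067108-34067407, plus strand) and Hoxd10 (chr2:74691641-74691940, plus strand) had none at E13.5. In the GENCODE annotation Sox11 starts at 27342574 and Sox2 at 34650405, outside the windows given for them. The windows and CpG numbers of these genes therefore depend on the annotation.
Sox11: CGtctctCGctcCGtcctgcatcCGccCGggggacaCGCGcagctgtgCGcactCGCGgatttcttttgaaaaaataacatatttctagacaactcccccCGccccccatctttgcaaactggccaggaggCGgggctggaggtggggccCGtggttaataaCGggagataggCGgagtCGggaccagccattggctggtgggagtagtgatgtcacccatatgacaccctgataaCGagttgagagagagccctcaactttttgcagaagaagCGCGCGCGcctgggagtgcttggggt
Sox2: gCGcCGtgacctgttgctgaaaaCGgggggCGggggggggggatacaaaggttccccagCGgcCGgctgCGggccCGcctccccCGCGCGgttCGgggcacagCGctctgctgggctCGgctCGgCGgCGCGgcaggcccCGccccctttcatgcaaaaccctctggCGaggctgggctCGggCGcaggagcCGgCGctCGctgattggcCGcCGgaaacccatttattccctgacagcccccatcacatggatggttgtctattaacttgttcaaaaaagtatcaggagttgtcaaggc
Cyp3a13: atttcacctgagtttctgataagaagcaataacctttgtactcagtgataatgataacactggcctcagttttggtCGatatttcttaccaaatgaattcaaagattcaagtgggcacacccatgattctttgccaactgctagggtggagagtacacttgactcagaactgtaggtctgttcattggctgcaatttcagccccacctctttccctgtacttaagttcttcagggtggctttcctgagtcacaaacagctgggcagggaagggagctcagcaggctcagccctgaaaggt
Lipn: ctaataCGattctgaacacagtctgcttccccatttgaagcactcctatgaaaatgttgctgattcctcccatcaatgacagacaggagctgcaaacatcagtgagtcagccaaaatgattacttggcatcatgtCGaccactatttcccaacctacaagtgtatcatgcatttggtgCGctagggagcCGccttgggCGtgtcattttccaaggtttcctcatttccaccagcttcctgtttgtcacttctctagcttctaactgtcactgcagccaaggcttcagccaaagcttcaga
Hoxd10: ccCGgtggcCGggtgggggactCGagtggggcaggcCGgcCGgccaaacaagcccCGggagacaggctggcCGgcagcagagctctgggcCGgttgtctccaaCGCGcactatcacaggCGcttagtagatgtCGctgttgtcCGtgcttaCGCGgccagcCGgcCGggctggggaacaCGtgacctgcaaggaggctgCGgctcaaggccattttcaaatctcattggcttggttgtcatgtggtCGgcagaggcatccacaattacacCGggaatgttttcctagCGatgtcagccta
The windows of Sox11 and Sox2 hold 21 and 27 CpG, numbers reached by 24.8% and 15.5% of the 32851 RefSeq windows. Those of Cyp3a13 and Lipn hold 1 and 5, whereas Hoxd10, also unread at E13.5, holds 22. The motif counted was CG, which reads the same on both strands. Windows were at hand for 162 of the 218 and 44 of the 57 genes (74.3% and 77.2%), which is under 80%, so a comparison of the classes by CpG is void and no class value is given.

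**Figure D3:**
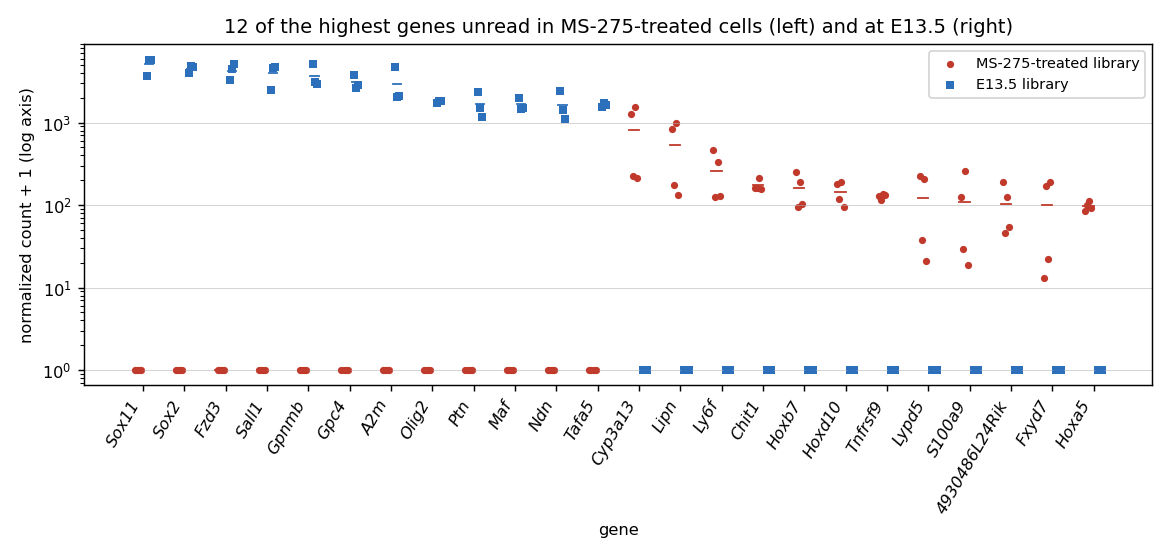
Normalized count + 1 (log axis) in each MS-275-treated library (circles) and E13.5 library (squares), with group means as bars and 0 reads drawn at 1, for 12 of the highest genes of each silent class. The left 12 are at 0 reads in all 4 treated libraries, the right 12 are at 0 in all 3 E13.5 libraries, and treated libraries 1 and 3 stand above 2 and 4 at Cyp3a13, Lipn and Lypd5.

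The SOX family, whose members bind DNA through one kind of domain and mark different lineages, was called in both directions. Of 15 Sox genes tested, 11 were lower in the treated cells, 2 higher and 2 not called, and 5 (Sox1, Sox2, Sox3, Sox11 and Sox21) had no read. Sox9, a progenitor and astrocyte factor, was at 120.3, 13.1, 122 and 7.58 in the treated and 2432, 2968 and 2819.8 in the E13.5 libraries (log2 difference -6.22 ± 0.98 (SE), adjusted p = 7.6e-04 in limma). The treated libraries were low throughout, with 1 and 3 well above 2 and 4. Sox4, found in immature neurons and other growing cells, was nearer to the embryonic level at 2756, 3883, 2805 and 4361 against 8315, 11135 and 10748 (log2 difference -1.56 ± 0.20 (SE), adjusted p = 2.6e-04 in limma). The called members of the endothelial subgroup went the other way. Sox17, an arterial and barrier factor, was at 51.2, 101, 51.9 and 126 against 1.59, 1.73 and 1.91 (log2 difference 4.82 ± 0.43 (SE), adjusted p = 4.0e-05 in limma), with every treated library above every E13.5 library. Sox18, which acts with Sox17 in vessel growth, was at 41.8, 13.1, 48.7 and 10.1 against 4.77, 13.9 and 3.82, groups that overlapped, and was not called (adjusted p = 0.06 in limma). It was called higher without MS-275 library 4 (log2 difference 2.06, adjusted p = 0.032 in limma), without E13.5 library 2 (2.19, adjusted p = 0.04), with MS-275 libraries 1 and 3 alone, under quantile scaling, in edgeR and in DESeq2. Sox7, the last of that subgroup, was at 587, 389, 454 and 412 against 318, 362 and 296 (log2 difference 0.49 ± 0.18 (SE), adjusted p = 0.042 in limma), a call lost without MS-275 library 1, 3 or 4 or E13.5 library 1, 2 or 3 (adjusted p from 0.053 to 0.13 in limma). All 5 Zic genes, zinc finger factors of the dorsal neural tube, were lower, with Zic1 and Zic4 unread. Families were read by symbol after the values were seen.

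Neural progenitor genes were nearly all lower in the treated cells, and neuron genes mostly so. Of 25 neural progenitor and radial glia genes tested, 24 were lower and none higher (15 of the 25 reached a normalized count of 10 in fewer than 2 treated libraries, so that their direction came with the filter), the median log2 difference was -7.58, and 15 had a treated mean under 1% of the E13.5 mean, against 720 of all genes tested (4.73%). Slc1a3 (GLAST), the glutamate transporter of radial glia, was at 1.71, 0, 1.62 and 0 in the treated and 5294, 7200.3 and 6636 in the E13.5 libraries, and Ptprz1, a receptor phosphatase of the same cells, at 0, 4.37, 4.87 and 0 against 8335, 19679 and 19294. For both genes, at least 2 treated libraries had no read. Vim, an intermediate filament shared by progenitors and ECs, was lower by much less, at 49147 ± 4861 (SD, n = 4) against 88433 ± 14086 (n = 3; log2 difference -0.84 ± 0.14 (SE), adjusted p = 0.001 in limma). It stood below E13.5 in every treated library. Among neuron genes, 23 of 28 were lower, 4 higher and 1 not called. Of the 28, 12 reached a normalized count of 10 in fewer than 2 treated libraries and needed the E13.5 libraries to pass the filter. Map2, a dendrite microtubule protein, was at 8.53, 21.9, 13 and 15.2 against 4842, 7717 and 7354, and Kif1a, an axonal motor, at 35.8, 24, 61.6 and 12.6 against 11564, 15371 and 16814. No treated library approached an E13.5 library for either gene. The 4 higher ones were Nefl, Nefm, Mapt and Slc17a7. Nefl, the light neurofilament chain, was at 7155, 6534, 8148 and 6481 against 512, 439 and 404 (log2 difference 3.97 ± 0.13 (SE), adjusted p = 8.8e-07 in limma), and Slc17a7, a vesicular glutamate transporter, at 239, 621, 361 and 609 against 14.3, 17.3 and 17.2 (log2 difference 4.63 ± 0.37 (SE), adjusted p = 2.4e-05 in limma). Both stood above E13.5 in every treated library. Exons of Nefl and Nefm overlap on opposite strands, as do those of Zic1 and Zic4 and those of Ccnd1, Col4a1, Ctnnb1, Cxcl10, Foxq1, P2ry12 and Tap1 with a neighbour, and the setting for strand in counting is not known here. Astrocyte genes were lower in 8 of 9 tested and oligodendrocyte lineage genes in 5 of 7. In the same way, 4 of the 9 and 3 of the 7 needed the E13.5 libraries to pass the filter. Aqp4, the water channel of astrocyte endfeet, was at 0, 0, 1.62 and 0 against 1068, 866 and 918.

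Mural, fibroblast and matrix genes formed the other large block of low genes. All 5 pericyte genes tested, 6 of 8 smooth muscle genes and 11 of 13 fibroblast and meningeal genes were lower, with Des, given above, as the 1 higher. Of all genes tested, 38.6% were lower. In these lists 3 pericyte, 2 smooth muscle and 7 fibroblast and meningeal genes reached 10 in fewer than 2 treated libraries. Such genes needed the E13.5 libraries to pass the filter. Acta2, smooth muscle actin, was at 11.9, 10.9, 16.2 and 5.05 in the treated and 32866, 20577 and 19743 in the E13.5 libraries (log2 difference -11.04 ± 0.37 (SE), adjusted p = 8.8e-07 in limma). Cspg4 (NG2), a pericyte proteoglycan, was at 5.12, 2.19, 2.43 and 2.53 against 514, 798 and 799. The groups stood far apart for both. Several genes of this block were highest in E13.5 library 1. Twist1, a mesenchymal transcription factor, was unread in the treated cells and at 756, 256 and 191 at E13.5, and Pdgfra, a platelet-derived growth factor receptor of fibroblasts and oligodendrocyte precursors, was at 426, 365, 307 and 331 against 2733, 206 and 189.9, groups that overlapped. Without E13.5 library 1, Pdgfra was called higher in the treated cells (log2 difference 0.84, adjusted p = 0.0067 in limma). The fibroblast and meningeal list summed to 21900 in E13.5 library 1 and to 7866 and 7475 in libraries 2 and 3, against 555.2 to 693.5 in the treated libraries. Of 56 extracellular matrix genes, 40 were lower and 4 higher (1 without E13.5 library 2, 2 without library 3, and 1 with the close libraries averaged), with a median of -2.57. Bgn (biglycan), which binds collagen, was at 0, 2.19, 0 and 0 against 12541, 2960.2 and 2933, and Ncan (neurocan), a proteoglycan of neural tissue, at 16 ± 7.94 (SD, n = 4) against 28612 ± 4627 (n = 3). Col1a1, a chain of fibrillar collagen I, was at 66.5, 80.9, 90 and 98.5 against 5522, 2593 and 2677 (log2 difference -5.33 ± 0.29 (SE), adjusted p = 4.0e-06 in limma). Some matrix genes of the vessel wall lay within the spread. Col4a1, the main collagen of basement membrane, was at 8811, 9588, 5521 and 11336 against 17218, 6918 and 7092 (95% interval of the log2 difference -1.01 to 0.71), and Fn1, fibronectin, was at 27129, 28974, 20295 and 32256 against 38844, 20475 and 23902. The groups overlapped for both. Lama1, a laminin chain of embryonic basement membranes, was higher at 336, 577, 362 and 518 against 65.2, 177 and 172 (log2 difference 1.79 ± 0.39 (SE), adjusted p = 0.004 in limma).

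Wnt signalling genes were mostly lower, from ligands to targets, beside 38.6% lower and 29.9% higher among all genes tested. Of 19 Wnt ligand genes tested of 22 in the table (Norrin and the R-spondins with them), 16 were lower and 1 higher, with a median of -3.45, and 10 of the 19 passed the filter through the E13.5 libraries. Wnt7a and Wnt7b, the ligands with which neural progenitors drive brain vessel growth, were at 87, 17.5, 108 and 17.7 against 193, 538 and 629.8 (log2 difference -3.24 ± 0.77 (SE), adjusted p = 0.0064 in limma) and 22.2, 19.7, 17.8 and 53 against 938, 1749 and 1678 (log2 difference -5.73 ± 0.42 (SE), adjusted p = 1.6e-05 in limma). Wnt7a was lower in every treated library and stood higher in libraries 1 and 3 than in 2 and 4. Ndp (Norrin), a ligand of Fzd4, had no treated read and 337, 252 and 248 at E13.5. Among 35 receptors and transducers, 22 were lower and 6 higher (3 with the close libraries averaged). Fzd4, the endothelial receptor of Norrin, was higher at 1476, 2235, 1458 and 2081 against 602, 604 and 676 (log2 difference 1.50 ± 0.18 (SE), adjusted p = 2.0e-04 in limma), as was Reck, the Wnt7 coreceptor, at 623, 768, 612 and 737 against 303, 258 and 238 (log2 difference 1.36 ± 0.15 (SE), adjusted p = 1.4e-04 in limma). The groups did not overlap for either. Fzd10 and Ror1, both receptors, had no treated read. Ctnnb1 (β-catenin), the transducer, was at 28796 ± 1919.7 (SD, n = 4) against 19470.0 ± 420.4 (n = 3; log2 difference 0.56 ± 0.10 (SE), adjusted p = 0.0012 in limma), lost with the close libraries averaged. Among 24 target genes, 17 were lower and 2, Apcdd1 and Sox17, higher. Lef1, target and transcription factor at once, was at 5.12, 15.3, 13 and 20.2 against 215, 147 and 98.3 (log2 difference -3.49 ± 0.50 (SE), adjusted p = 4.6e-04 in limma). Axin2, the feedback inhibitor, was at 11.9, 83.1, 38.9 and 298 against 404, 253 and 249 and was not called (adjusted p = 0.058 in limma). It was called lower without MS-275 library 4 (log2 difference -3.07, adjusted p = 0.0055 in limma) and with libraries 1 and 3 alone (-3.70, adjusted p = 0.0012), with all 12 libraries in the fit and with a pseudocount of 8. With the replicate number as a block in the fit, Axin2 was also called lower (-3.07, adjusted p = 0.0054 in limma). The Axin2 groups overlapped through treated library 4, which stood between the E13.5 libraries, while library 1 was lowest. Apcdd1, a membrane-bound Wnt inhibitor, was called higher at 572, 1092, 600.1 and 864 against 758, 168 and 158 (log2 difference 1.47 ± 0.55 (SE), adjusted p = 0.044 in limma), but the groups overlapped and the call was lost without MS-275 library 2, 3 or 4 or E13.5 library 2 or 3 (adjusted p from 0.06 to 0.16 in limma). Among 24 antagonists tested, 14 were lower and 3 higher (none with the close libraries averaged, 1 without MS-275 library 2 or 4 or E13.5 library 2). Sfrp1, a soluble Wnt-binding protein, was at 1.71, 0, 6.49 and 0 against 742, 976 and 1035. Beside the ligands, 4 of the 35 receptors and transducers, 6 of the 24 targets and 8 of the 24 antagonists reached 10 in fewer than 2 treated libraries. Such genes, Fzd10, Ror1 and Sfrp1 among them, needed the E13.5 libraries to pass the filter. The treated libraries were needed by 3 ligands, 1 target (Sox17) and 1 antagonist.

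Genes of growth and division were lower as well. Of 32 cell division genes, 25 were lower and 2 higher (1 without E13.5 library 2 or 3), with a median of -2.49. Among all genes tested, 38.6% were lower and 29.9% higher. Mki67, the proliferation marker, was at 732, 427, 543 and 355 in the treated and 6138, 3761 and 3665 in the E13.5 libraries (log2 difference -3.14 ± 0.28 (SE), adjusted p = 4.3e-05 in limma), and Plk1, a mitotic kinase, at 46.9, 28.4, 36.5 and 32.8 against 1334, 466 and 492 (log2 difference -4.21 ± 0.40 (SE), adjusted p = 5.7e-05 in limma). Both were below E13.5 in every treated library. Pcna, the clamp of DNA polymerase, was higher at 4279, 9559.9, 5753 and 8556 against 3540.0, 2193 and 1944 (log2 difference 1.44 ± 0.32 (SE), adjusted p = 0.0046 in limma). Ccnd1 and Ccnd2, the D cyclins that start the cycle, were at 6013 ± 4334 against 58419 ± 8738 and 8037 ± 878 against 79311 ± 1763 (SD, n = 4 and 3; adjusted p = 7.8e-04 and 8.8e-07 in limma). Of 18 imprinted growth genes, 14 were lower and none higher, and Dlk1, Ndn, Magel2 and Dio3 had no treated read. In 6 of the 18, the unread genes among them, fewer than 2 treated libraries reached 10. These needed the E13.5 libraries to pass the filter, and 1 of the 18 needed the treated libraries. Dlk1, a Notch-related growth regulator, was at 933, 628 and 555 at E13.5. By contrast Plagl1 (Zac1), an imprinted transcription factor, was at 2683, 6731, 4939 and 5072 against 4197, 6226 and 5741, and Cdkn1c (p57), the imprinted cell cycle inhibitor, at 779, 738, 1276 and 768 against 867, 684 and 663. These overlapped, with 95% intervals of -0.90 to 0.50 and -0.27 to 0.75. Of 18 p53 targets, 11 were lower and 3 higher. Cdkn1a (p21), the inhibitor that arrests the cycle, was at 8051, 8563, 7826 and 8323 against 14902, 15888 and 15903 (log2 difference -0.93 ± 0.09 (SE), adjusted p = 6.3e-05 in limma), about 1 log2 unit lower in every library, and Plk2, a stress-induced kinase, was higher at 20683, 23659, 22869 and 25318 against 2916, 6173 and 6005 (log2 difference 2.28 ± 0.26 (SE), adjusted p = 1.4e-04 in limma).

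Endothelial identity genes ran against this current. Of 32 tested, 25 were higher in the MS-275-treated cells and 1 lower, with a median of 2.88 beside -0.14 for all genes. Of all genes tested, 29.9% were higher and 38.6% lower. In 9 of the 32, fewer than 2 E13.5 libraries reached 10, so that these genes needed the treated libraries to pass the filter. Cldn5, Erg and Tie1, given next, were such genes. Cldn5, the main claudin of the barrier, was at 2559.7, 802, 2016 and 922 in the treated and 3.18, 0 and 0 in the E13.5 libraries (log2 difference 9.76 ± 0.64 (SE), adjusted p = 9.5e-06 in limma). Every treated library held it, and it was all but unread at E13.5. Erg, an ETS factor that maintains endothelial identity, was at 3799.9, 1076, 2466 and 1248 against 0, 6.94 and 1.91, and Tie1, an endothelial receptor kinase, at 1732, 4399, 972 and 4369 against 1.59, 6.94 and 3.82. Erg was higher in libraries 1 and 3 and Tie1 in 2 and 4. Pecam1 (CD31), the marker used for purity, was at 4762, 2551, 1341 and 3352 against 45.3, 62.4 and 70.6 (log2 difference 5.52 ± 0.40 (SE), adjusted p = 1.6e-05 in limma), and Cdh5 (VE-cadherin), the junctional cadherin, at 10931, 2808, 3654 and 4164 against 108, 57.2 and 59.2 (log2 difference 6.0 ± 0.46 (SE), adjusted p = 2.0e-05 in limma). Neither overlapped. Kdr (VEGFR2), the main VEGF receptor, was at 6668, 10701, 5833 and 10563 against 998, 620.0 and 676 (log2 difference 3.44 ± 0.27 (SE), adjusted p = 2.2e-05 in limma). Vwf, the clotting factor stored in ECs, was at 1743, 934, 1152 and 859 against 4.77, 15.6 and 15.3 (log2 difference 6.60 ± 0.43 (SE), adjusted p = 9.5e-06 in limma). The untreated adult means of Pecam1, Cdh5 and Cldn5 were higher still, at 71699, 82471 and 24467, beside treated means of 3002, 5389 and 1575. Vwf alone of the list had a lower untreated adult mean, 521 beside 1172. Flt1, the decoy VEGF receptor, differed by less, at 1099.5, 1919, 859 and 1949.5 against 831, 831 and 756 (log2 difference 0.77 ± 0.30 (SE), adjusted p = 0.049 in limma), and its call was lost without MS-275 library 2 or 4 or E13.5 library 1, 2 or 3 (adjusted p from 0.1 to 0.13 in limma). Ets1, an ETS factor of many cell types, was at 1536, 2108, 1297 and 1811 against 1696, 1756 and 1825 (95% interval of the log2 difference -0.47 to 0.31). The 1 lower gene was S1pr1, the sphingosine phosphate receptor that steadies vessels, at 1379, 443, 718 and 639 against 1388, 2515 and 2531 (log2 difference -1.51 ± 0.39 (SE), adjusted p = 0.0093 in limma). Clec14a, an endothelial lectin, was also below E13.5 in every treated library, at 66.5, 19.7, 64.9 and 25.3 against 173, 76.3 and 70.6, but was not called (adjusted p = 0.063 in limma). Without MS-275 library 1 or 3 it was called lower (log2 difference -1.58 and -1.57, adjusted p = 0.04 and 0.047 in limma), as it was when libraries were scaled to the same total, and under quantile scaling its difference was 0.03.

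**Figure D4:**
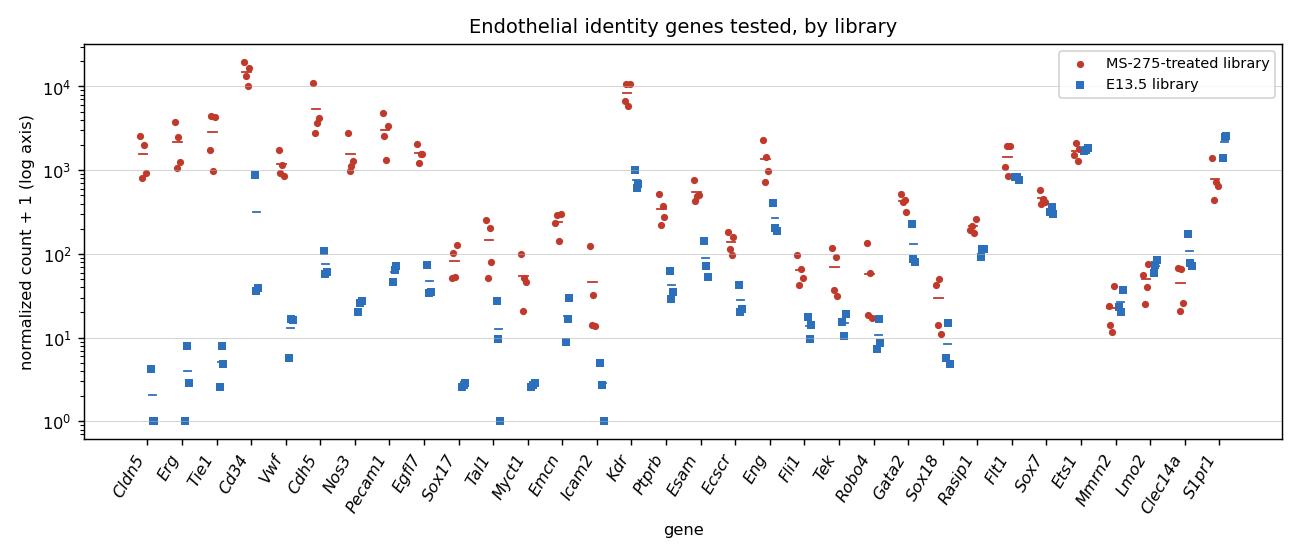
Normalized count + 1 (log axis) of the 32 endothelial identity genes tested in each MS-275-treated library (circles) and E13.5 library (squares), ordered by log2 difference, with group means as bars. Cldn5, Erg and Tie1 stand farthest apart at the left and S1pr1, lower in every treated library, is at the right.

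Tip cell, barrier and junction genes were called in both directions, as genes were at large. Of 40 angiogenesis genes, 18 were higher and 16 lower, beside 29.9% and 38.6% of all genes tested. Angpt2, a tip cell ligand that loosens vessels, was at 56.3, 40.4, 50.3 and 36.6 against 2557, 2234 and 2152 (log2 difference -5.64 ± 0.20 (SE), adjusted p = 1.0e-06 in limma), and Esm1, another tip cell gene, at 5.12, 6.56, 4.87 and 5.05 against 447, 693 and 614 (log2 difference -6.50 ± 0.29 (SE), adjusted p = 1.9e-06 in limma). Vegfa, the growth factor itself, was at 506, 391, 664 and 255 against 3026, 6014 and 6264 (log2 difference -3.50 ± 0.37 (SE), adjusted p = 1.0e-04 in limma). All 3 were lower in every treated library. Flt4, a receptor of VEGF-C, was higher at 4422, 4257, 3199 and 4076 against 444, 305 and 317 (log2 difference 3.49 ± 0.18 (SE), adjusted p = 3.0e-06 in limma), and Dll4, the tip cell Notch ligand, was at 106, 48.1, 73.8 and 68.2 against 20.7, 90.2 and 68.7, not called (adjusted p = 0.44 in limma). Under quantile scaling Dll4 was called higher (log2 difference 1.70, adjusted p = 0.015 in limma). Of 30 barrier transporter genes tested of 32, 18 were lower and 5 higher (3 with the close libraries averaged, 8 under quantile scaling). Mfsd2a, the lipid transporter that limits transcytosis, was at 18.8, 0, 22.7 and 0 against 1857, 1152 and 1149 (log2 difference -8.18 ± 1.25 (SE), adjusted p = 6.6e-04 in limma), with no read in libraries 2 and 4. Slc7a5, the large amino acid carrier, was at 1059, 581, 1358 and 557 against 3303, 7446 and 7471 (log2 difference -2.78 ± 0.41 (SE), adjusted p = 5.5e-04 in limma). Slc2a1 (GLUT1), the glucose carrier of the barrier, was higher at 8411, 6487, 8064 and 5746 against 2465, 3271 and 3034 (log2 difference 1.29 ± 0.17 (SE), adjusted p = 3.1e-04 in limma), above E13.5 in every library. Abcg2, an efflux pump, was called higher at 2140.1, 2624, 2378 and 2676 against 2209, 1331 and 1233 (log2 difference 0.67 ± 0.21 (SE), adjusted p = 0.021 in limma), lost without E13.5 library 2 or 3 (adjusted p from 0.083 to 0.086 in limma).

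Among 31 junction genes tested, 14 were higher (9 with the close libraries averaged) and 11 lower, beside 29.9% and 38.6% of all genes tested. F11r (JAM-A), a tight junction adhesion molecule, was at 3242, 2949.8, 2694 and 2910.3 against 135, 61.6 and 52.5 (log2 difference 5.26 ± 0.30 (SE), adjusted p = 5.1e-06 in limma), and Cgn (cingulin), a junction scaffold, at 1075 ± 216 (SD, n = 4) against 53.1 ± 22.2 (n = 3; log2 difference 4.38 ± 0.31 (SE), adjusted p = 1.4e-05 in limma). Ocln (occludin), a strand protein of tight junctions, was at 155, 344, 139 and 364 against 36.6, 34.7 and 40.1 (log2 difference 2.59 ± 0.40 (SE), adjusted p = 6.7e-04 in limma). These 3 stood above E13.5 in every treated library. The claudins were mixed. Beside Cldn5, Cldn1, a claudin of tight epithelia, was at 97.2, 199, 189.8 and 182 against 188, 98.8 and 76.3 (95% interval -0.38 to 1.41), groups that overlapped, with library 1 lowest in the treated cells. Cldn1 had no call, but was called higher under quantile scaling (log2 difference 1.48, adjusted p = 0.0092 in limma). Cldn12 was lower at 780.5, 785, 731 and 824 against 4924, 6248 and 5940.1 (log2 difference -2.86 ± 0.12 (SE), adjusted p = 1.5e-06 in limma), and Cldn11, a claudin of myelin and meninges, had no treated read against 114, 88.4 and 63. Cdh2 (N-cadherin), which joins ECs to mural cells and progenitors to each other, was lower at 1382, 549, 1129.6 and 707 against 21377, 20551 and 20339 (log2 difference -4.55 ± 0.30 (SE), adjusted p = 1.0e-05 in limma). Tjp1 (ZO-1), the scaffold of tight junctions, was at 10818 ± 1274 against 7352 ± 305 (SD, n = 4 and 3; log2 difference 0.55 ± 0.12 (SE), adjusted p = 0.0042 in limma), a call lost with the close libraries averaged. Cav1, the coat protein of caveolae, was called lower at 6249, 1582, 4130.1 and 1741 against 10576, 6512 and 6192 (log2 difference -1.37 ± 0.49 (SE), adjusted p = 0.038 in limma). Cav1 was within the E13.5 range in treated library 1, and the call was lost without MS-275 library 2 or 4 or E13.5 library 1, 2 or 3 (adjusted p from 0.064 to 0.14 in limma). Its partner Cavin1 was at 16322, 9142, 12468 and 9188 against 18482, 8307 and 8616 (95% interval -0.70 to 0.82).

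Of 33 endothelial and barrier transcription factors tested of 36, 15 were higher and 13 lower, beside 29.9% and 38.6% of all genes tested. Klf2, induced by blood flow, was at 4345, 3340.0, 3927 and 2728 against 100.1, 39.9 and 45.8 (log2 difference 5.93 ± 0.32 (SE), adjusted p = 4.1e-06 in limma), and Foxf1, a forkhead factor of ECs and mesenchyme, at 629, 393, 549.8 and 378 against 19.1, 26 and 17.2 (log2 difference 4.48 ± 0.27 (SE), adjusted p = 6.4e-06 in limma). Neither overlapped E13.5. The barrier forkhead genes were nearly silent in the treated cells. Foxf2 was at 0, 0, 2.43 and 0 against 58.8, 32.1 and 29.6 (log2 difference -4.85 ± 0.59 (SE), adjusted p = 2.1e-04 in limma), and Foxq1 at 1.71, 0, 0 and 0 against 84.2, 173 and 162 (log2 difference -6.71 ± 0.53 (SE), adjusted p = 2.2e-05 in limma). For each, 3 of the 4 treated libraries had no read. Prox1, the lymphatic factor that progenitors also use, was at 1.71, 0, 0 and 5.05 against 429, 853 and 865 (log2 difference -8.41 ± 0.70 (SE), adjusted p = 2.9e-05 in limma). Lyve1, a hyaluronan receptor of lymphatic ECs, was by contrast higher at 5484, 215, 1475 and 284 against 1.59, 0 and 1.91 (log2 difference 8.74 ± 1.11 (SE), adjusted p = 2.5e-04 in limma), with library 1 far above 2 and 4.

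Genes of the treated cells with no read at E13.5 numbered 57 (0.374% of genes tested), with 10 or more normalized counts in every treated library, and 10 of them had a mean of at least 100. Of the 57, 25 also had no read in the untreated adult libraries. Cyp3a13, a drug-metabolizing cytochrome, led them at 1275, 223, 1528 and 209.6, at least 933-fold above E13.5 (taken as 3 reads over that group), and Lipn, a lipase of skin, followed at 839, 174, 984 and 131, at least 614-fold. Libraries 1 and 3 held several times more of both than 2 and 4. Chit1, a chitinase of macrophages, was at 162, 158, 215 and 154, highest in library 3, and Tnfrsf9 (4-1BB), a costimulatory receptor, at 129, 115, 135 and 133. Chit1 had no read in the untreated adult cells. S100a9, a calcium-binding protein of neutrophils, was at 125, 28.4, 257 and 17.7, and Fxyd7, a regulator of the sodium pump, at 11.9, 172, 21.1 and 188. These last 2 split the treated libraries in opposite ways. The count of 57 became 93 without E13.5 library 1. Genes that were read at E13.5 but far below the treated level included, beside Cldn5 and Erg, Gda, guanine deaminase, at 9794, 11753, 11111 and 10937 against 25.4, 11.3 and 13.4 (log2 difference 9.35 ± 0.25 (SE), adjusted p = 4.8e-07 in limma) and Prss16, a protease known from thymus, at 1091, 933, 1073 and 1035 against 3.18, 0 and 0 (log2 difference 9.32 ± 0.51 (SE), adjusted p = 4.2e-06 in limma). Neither overlapped, and both were even among treated libraries.

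Hox genes, which give position along the body axis and are not used in the developing forebrain, were on the treated side. Of 39 listed genes, 18 reached the filter, 17 of them higher and none lower. All 18 passed through the treated libraries, since none reached 10 in 2 E13.5 libraries, so that their direction came with the filter. The whole list summed to 2033 to 2825 in the treated libraries and 33.4 to 43.4 at E13.5. All 8 Hoxb genes tested, all 5 Hoxd genes and all 4 Hoxa genes were higher. The 1 Hoxc gene tested, Hoxc13, was at 20.5, 19.7, 53.5 and 17.7 against 9.54, 17.3 and 5.73 and was not called (adjusted p = 0.068 in limma), though it was without E13.5 library 2 (log2 difference 1.62, adjusted p = 0.048 in limma) and under quantile scaling. Hoxd8 was at 919, 712, 743 and 989.9 against 7.95, 0 and 0 (log2 difference 8.65 ± 0.75 (SE), adjusted p = 3.6e-05 in limma), and Hoxb4 at 239, 284, 221 and 235 against 1.59, 1.73 and 0 (log2 difference 6.99 ± 0.42 (SE), adjusted p = 6.2e-06 in limma). Hoxb7, Hoxd10, Hoxa5 and Hoxb13 had no read at E13.5. Hoxb7 was at 249.9, 94, 188 and 101 in the treated libraries, at least 183-fold above E13.5, and Hoxd10, whose start is printed above, at 177, 119, 187 and 93.4, at least 166-fold. The untreated adult means of these 2 were higher still, at 2508 and 853.

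Genes of innate defence and antigen display were mostly higher. Of 23 interferon response genes, 14 were higher and 1 lower, with a median of 2.14, and of 18 antigen presentation genes, 12 were higher (7 with the close libraries averaged) and 3 lower, with a median of 1.19. Of all genes tested, 29.9% were higher and 38.6% lower. In 5 of the 23 and 3 of the 18, fewer than 2 E13.5 libraries reached 10. Such genes, Oas1a and H2-Ab1 among them, needed the treated libraries to pass the filter, and 1 of the 18 needed the E13.5 libraries. Oas1a, a sensor of double-stranded RNA, was at 591, 432, 689 and 635 against 7.15, 3.47 and 1.91 (log2 difference 6.94 ± 0.38 (SE), adjusted p = 4.4e-06 in limma). H2-D1, a class I histocompatibility chain, was at 17256, 19569, 17015 and 18814 against 749, 649 and 600.2 (log2 difference 4.77 ± 0.11 (SE), adjusted p = 4.8e-07 in limma), and H2-Ab1, a class II chain, at 131, 251, 189.8 and 265 against 12.7, 8.67 and 5.73 (log2 difference 4.40 ± 0.38 (SE), adjusted p = 3.3e-05 in limma). All 3 were above E13.5 in every treated library. H2 genes have near-identical copies, so reads may be split among them. The lower members were not of one kind. Tap1, a peptide transporter for class I, was at 169, 155, 139 and 144 against 424, 401 and 445 (log2 difference -1.48 ± 0.16 (SE), adjusted p = 9.5e-05 in limma), and Psmb10, an immunoproteasome subunit, at 23, 32.8, 18.7 and 30.3 against 255, 235 and 199 (log2 difference -3.11 ± 0.29 (SE), adjusted p = 4.5e-05 in limma). Ifit2, an interferon-induced protein, was the 1 lower interferon gene (2 without MS-275 library 1), at 343, 155, 186 and 222 against 625, 599 and 651 (log2 difference -1.52 ± 0.26 (SE), adjusted p = 0.0013 in limma). Of 21 adhesion and inflammation genes tested, 5 were higher, 5 lower and 11 not called, with a median of 0.06 that was -0.03 when libraries were scaled to the same total. Of the 21, 3 needed the treated libraries to pass the filter and 2 the E13.5 libraries. The called members included chemokines and an adhesion molecule. Ccl2, which draws monocytes, was at 6122, 1343, 3724 and 1144 against 157, 118 and 106 (log2 difference 4.27 ± 0.57 (SE), adjusted p = 3.4e-04 in limma), and Cxcl1, which draws neutrophils, at 3169.6, 6935, 2970.5 and 4333 against 38.1, 287 and 216 (log2 difference 4.93 ± 0.67 (SE), adjusted p = 3.5e-04 in limma), whereas Icam1, the leukocyte adhesion molecule, was lower at 5.12, 7.65, 4.87 and 0 against 277, 547 and 527 (log2 difference -6.68 ± 0.75 (SE), adjusted p = 1.3e-04 in limma). Of 14 microglia and macrophage genes tested of 16, 9 were lower and 2 higher, and 9 passed the filter through the E13.5 libraries. C1qa, C1qc, P2ry12 and Tyrobp had no treated read. Cd68, a lysosomal protein of macrophages that is not confined to them, was higher at 8335, 3228, 6463 and 3089.6 against 337, 1307 and 1194 (log2 difference 2.57 ± 0.55 (SE), adjusted p = 0.0038 in limma), and the sum of the list, 3266 to 8576 in the treated libraries and 988.5 to 1949 at E13.5, was mostly Cd68 in the treated cells. Cd163, a scavenger receptor of macrophages, was at 22.2, 15.3, 22.7 and 15.2 against 7.95, 1.73 and 1.91 (log2 difference 2.23 ± 0.52 (SE), adjusted p = 0.0056 in limma), and its call was lost with the close libraries averaged.

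The α-globin genes were read in the treated cells without their usual companions. Hba-a1 was at 252, 244, 371 and 239.9 against 4.77, 0 and 2.86 (log2 difference 6.60 ± 0.59 (SE), adjusted p = 4.2e-05 in limma), and Hba-a2, its near-identical copy, at 238, 243, 355 and 231 against 4.77, 0 and 2.86, so that the split of reads between the 2 copies is uncertain. The β-globin genes and Klf1, the red cell transcription factor, did not reach the filter. Of 3 erythroid genes tested, 2 were higher and 1 was not called, and none reached 10 in 2 E13.5 libraries. Both α-globin copies passed through the treated libraries, so that their direction came with the filter. Both α-globin copies had no read in the untreated adult cells.

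Genes of the deacetylases, the enzymes that MS-275 acts on, and of their complexes differed by little in many cases. Of 30 histone deacetylase and corepressor genes, 16 were at a like level, and, overlapping with these, 16 were called lower and 2 higher (1 without MS-275 library 2, 3 or 4 or E13.5 library 2 or 3), with a median of -0.50. Hdac2, the class I deacetylase that the study centres on, was at 4567, 7470.2, 4868 and 7345 against 4829, 5088 and 4731 (95% interval -0.19 to 0.74), and Hdac8, also of class I, at 319.9, 196, 188 and 148 against 205, 185 and 184 (95% interval -0.53 to 0.72). Both overlapped, with Hdac2 higher in libraries 2 and 4. Hdac2 was called higher with those libraries alone (log2 difference 0.60, adjusted p = 8.1e-04 in limma). Hdac8 was called higher under quantile scaling (0.91, adjusted p = 0.0076 in limma). Hdac9, a class IIa deacetylase, was lower at 25.6, 10.9, 22.7 and 7.58 against 546, 669 and 569 (log2 difference -5.22 ± 0.43 (SE), adjusted p = 2.9e-05 in limma), and so was Kdm1a (LSD1), the histone demethylase of corepressor complexes, at 796, 843, 766 and 764 against 3118, 3430.2 and 3204 (log2 difference -2.04 ± 0.10 (SE), adjusted p = 2.4e-06 in limma). Of 20 genes of PRC2 and DNA methylation tested of 21, 9 were lower and 4 higher (1 with the close libraries averaged). Among all genes tested, 38.6% were lower and 29.9% higher. Ezh2, the methyltransferase of PRC2, was at 712, 995, 923 and 991 against 2583, 2018 and 1868 (log2 difference -1.25 ± 0.17 (SE), adjusted p = 3.4e-04 in limma), and its paralog Ezh1 was higher at 1215, 783, 1077 and 914 against 416, 465 and 462 (log2 difference 1.14 ± 0.17 (SE), adjusted p = 5.7e-04 in limma). They went opposite ways in every library. Eed, which holds the complex together, was at 1286, 1546, 1245 and 1563 against 1430.3, 1509.6 and 1433 (95% interval -0.34 to 0.23). Dnmt3a, which methylates DNA anew, was lower at 219, 216, 204 and 247 against 3637, 4361 and 4613 (log2 difference -4.23 ± 0.13 (SE), adjusted p = 8.6e-07 in limma), and Tet1, which oxidizes methylated DNA, at 0, 17.5, 3.24 and 7.58 against 447, 904 and 1012 (log2 difference -7.19 ± 0.92 (SE), adjusted p = 2.6e-04 in limma). Of 24 ribosome and housekeeping genes, 13 were at a like level, 8 were called higher and 6 lower, with a median of -0.04. Hspa8, a chaperone and one of the like-level genes of highest normalized count, was at 57289 ± 4264 against 59341 ± 9835 (SD, n = 4 and 3; 95% interval -0.35 to 0.27).

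Some answers depended on which treated libraries were read. Of 5427 genes with a treated mean of at least 1000, 244 were over 2-fold higher in libraries 1 and 3 than in 2 and 4 without overlap, 134 were over 2-fold lower, 57 lay over 4-fold apart in either direction, and 187 of the genes over 2-fold apart had no call against E13.5. Fabp4, a fatty acid carrier of capillary ECs, was at 6318, 37.2, 6531 and 0 against 179.6, 65.9 and 49.6, so that libraries 1 and 3 were far above and libraries 2 and 4 below the E13.5 libraries. Insig1, which holds back cholesterol synthesis, was at 22818, 1071, 24888 and 843 against 4743, 5083 and 4980.1, with its E13.5 values between the 2 pairs. Cxcl10, an interferon-induced chemokine, split the other way at 71.6, 2595, 188 and 2043 against 90.6, 751 and 773, as did Krt20, a keratin of gut epithelium, at 269.5, 8199, 395 and 6878 against 969, 55.5 and 49.6. None of these 4 was called over all 7 libraries, but Krt20 was called higher without MS-275 library 1 (log2 difference 4.32, adjusted p = 0.038 in limma) or E13.5 library 1 (4.87, adjusted p = 0.036), and in DESeq2. Fabp4 was called higher in DESeq2 (5.10, adjusted p = 0.029) and with MS-275 libraries 1 and 3 alone (6.24, adjusted p = 1.5e-04 in limma). Insig1 was called higher with libraries 1 and 3 alone (2.27, adjusted p = 1.2e-05 in limma) and lower with libraries 2 and 4 alone (-2.37, adjusted p = 3.7e-05). The 21 cholesterol synthesis genes moved with this split. Of them 1 was higher and 4 lower over all 7 libraries, 9 were higher with MS-275 libraries 1 and 3 alone, and 15 were lower with libraries 2 and 4 alone. Without MS-275 library 1 there were 9 lower, and without MS-275 library 3 or E13.5 library 2 or 3 none higher. Of the larger differences, Loxl4, a matrix crosslinking enzyme, and Lcn2, an iron-binding protein of inflammation, were called higher despite the split, Loxl4 at 31547, 1026, 21529 and 3050.5 against 228, 182 and 158 (log2 difference 5.17 ± 1.12 (SE), adjusted p = 0.004 in limma) and Lcn2 at 4672, 118, 3559 and 30.3 against 16.7, 1.73 and 0 (log2 difference 7.10 ± 1.91 (SE), adjusted p = 0.011 in limma).

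**Figure D5:**
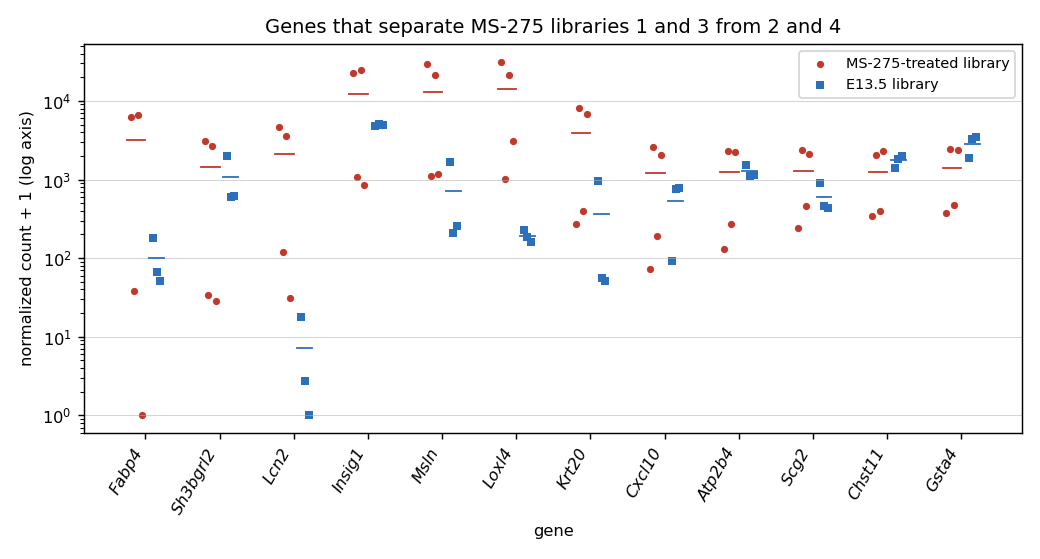
Normalized count + 1 (log axis) of the 12 genes with the largest difference between MS-275 libraries 1 and 3 and libraries 2 and 4 in each MS-275-treated library (circles, from left to right libraries 1 to 4) and E13.5 library (squares), with group means as bars. Fabp4 and Insig1 are high in libraries 1 and 3, Krt20 and Cxcl10 in libraries 2 and 4, and for Insig1 the E13.5 libraries lie between.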

How the data were processed

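RNA was read by paired-end sequencing (NextSeq, KAPA mRNA HyperPrep) in 12 libraries, of which 7 are used here. Per the labels and the methods, the authors checked reads with FastQC, trimmed with cutadapt, aligned with STAR to mm10, counted reads on protein-coding genes (featureCounts is named in the processing notes) and divided by DESeq2 size factors. The sources used here do not state tool versions or the use of strand. The authors deposited these values as normalized counts, a signal in which whole reads were recovered for 100.0% of values (tolerance 0.01). Of 21638 rows, 26 whose names had turned into dates and 1 with a missing value were left out.

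A gene was tested where at least 2 of the 7 libraries reached 10. Differences of log2(normalized count + 1), with 95% intervals, came from limma 3.58.1 (R 4.3.3; trend and robust settings, Benjamini-Hochberg adjustment over all genes tested, threshold 0.05, two-sided). edgeR 4.0.16 and DESeq2 1.42.0 on the recovered reads, other pseudocounts, filters and scalings, and fits without each library were alternatives. In edgeR 4890 genes were higher and 5508 lower. A bound on a fold against a group with no read uses 3 reads over that group. The fit was also run on simulated libraries drawn independently of each other. These lacked the close pairs seen here, so that run cannot show whether the p-values hold for the real libraries. Intervals of single libraries were not computed, since PCR reads without molecular identifiers are not independent molecules.

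Genes are named where the paper names them, where they are among the 12 largest differences each way (groups not overlapping, mean of at least 100), the 4 most significant each way or the 3 least different of a list, the 15 highest of each unread class, the 10 highest at a like level, or the 6 each way that most separate MS-275 libraries 1 and 3 from 2 and 4. Clec14a, Klf1, Ldha, Vcam1, Dio3, Magel2, Hoxb13 and the Sox and Zic genes outside that rule were chosen after their values were seen. Some genes within that rule are not reported here. The members and lists were chosen with earlier results of these data known.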

Additional observations from a re-analysis of the deposited data

Results flagged for a closer look

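Of 122 genes named here and examined, 8 had 1 treated library set apart from the other 3 by more than Dixon's 95% limit for 4 values. Chance marks about 1 in 20 groups in this way, close to the share seen. The E13.5 group of 3 was not examined so. Library 3 was high for 5 of them, with normalized counts of 1275.6 for Cdkn1c, 214.9 for Chit1, 370.6 for Hba-a1, 355.2 for Hba-a2 and 53.52 for Hoxc13. The 2 α-globin copies share reads and count as 1 observation. Library 1 was high for Cdh5 at 10931.5 and low for Cldn1 at 97.24, and library 4 was high for Wnt7b at 53.03. The calls of Cdh5, Chit1, Hba-a1, Hba-a2 and Wnt7b held without each of these libraries, and Cldn1, Cdkn1c and Hoxc13 had no call with all libraries.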

How the results depend on the processing

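Of 168 named genes tested, 144 were called, and 134 of these kept the call in every alternative. Among those with no call, 14 were called in at least 1 alternative. The counts of genes higher and lower lay at 4149 to 5945 and 4779 to 6266 under other pseudocounts, filters, scalings, tools and with either close MS-275 pair alone, and called genes changed direction only under quantile scaling, where 2 did. Without 1 library, 3955 to 4557 genes were higher, 5168 to 5872 lower and 3464 to 3966 at a like level. With the close libraries averaged, 2932 genes were higher and 2281 at a like level, and a change of over 2-fold left 2880 higher. The unread classes depended most on their limits. The 218 genes unread after MS-275 became 402 with up to 3 reads allowed and 88 with at least 100 at E13.5, and were 225 to 304 without 1 library. The 57 unread at E13.5 became 106 and 5 in the same way, and 59 to 93 without 1 library, the highest without E13.5 library 1. With MS-275 libraries 1 and 3 alone, a choice made after seeing the data, the classes held 332 and 119 genes, and with libraries 2 and 4 alone the first held 489. Directions that turned were a median of -0.09 for the endothelial and barrier transcription factors with no filter, 0.65 for the microglia list with a filter of 50, 2.27 for Insig1 with MS-275 libraries 1 and 3 alone, 0.84 for Pdgfra without E13.5 library 1 (down to -1.08 without library 3), and 1.18 for Wif1 under quantile scaling, and the cause was not tested. List medians also crossed 0 for germline genes (0.46 under quantile scaling, 0.08 with no filter, 1.49 with a filter of 50), arterial, venous and lymphatic genes (0.09 under quantile scaling) and cholesterol synthesis (0.24 with MS-275 libraries 1 and 3 alone), and under several settings for the caveolae, adhesion and inflammation, and housekeeping lists, whose medians lie near 0. Libraries with the same number did not deviate together (correlations 0.16, 0.12 and -0.09), and with the replicate block 4251 genes were higher, 5560 lower and 3809 at a like level. With 4 and 3 libraries, and close pairs within each, small differences are the least certain.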

Other observations

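Genes of meiosis and the germ line, which DNA methylation and histone marks keep silent in body tissues, were called in both directions. Of 11 tested of 20 in the table, 4 were higher in the treated cells and 4 lower, beside 29.9% and 38.6% of all genes tested, and the median log2 difference of -0.65 turned to 0.46 under quantile scaling (5 higher and 3 lower). Sycp1, a protein of the synaptonemal complex that pairs chromosomes, was at 40.9, 65.6, 61.6 and 75.8 in the treated and 1.59, 1.73 and 0 in the E13.5 libraries (log2 difference 4.98 ± 0.48 (SE), adjusted p = 5.9e-05 in limma), and Brdt, a bromodomain protein of the testis, at 199, 336, 218 and 295 against 30.2, 45.1 and 39.1 (log2 difference 2.73 ± 0.27 (SE), adjusted p = 7.1e-05 in limma). Rec8, the meiotic cohesin, was lower at 5.12, 1.09, 0.811 and 2.53 against 40.5, 58.1 and 36.3 (log2 difference -3.91 ± 0.52 (SE), adjusted p = 3.2e-04 in limma), and Tdrd1, of the piRNA pathway, had no treated read against 11.1, 12.1 and 13.4. The first 2 were above and the last 2 below E13.5 in every treated library. Of the 11 genes, 4 needed the treated libraries to pass the filter and 4 the E13.5 libraries. Sycp1 was of the first kind and Rec8 and Tdrd1 of the second, so that their direction came with the filter.

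Genes of energy metabolism differed by isoform and between the treated libraries. Of 18 glycolysis genes tested, 5 were higher and 4 lower, and 11 were higher with MS-275 libraries 1 and 3 alone. Aldoa, the common aldolase, whose exons overlap a neighbour on the opposite strand, was higher at 63597, 47010.0, 60429 and 46370.0 against 20190.0, 22164 and 21002 (log2 difference 1.35 ± 0.14 (SE), adjusted p = 1.0e-04 in limma), while Aldoc, the brain isoform, was at 0, 0, 0 and 2.53 against 2293, 2448 and 2259.6 (log2 difference -10.73 ± 0.51 (SE), adjusted p = 2.4e-06 in limma). Eno2, the neuronal enolase, and Ldhb, a subunit of lactate dehydrogenase, were lower too, at 5.12, 4.37, 4.87 and 5.05 against 610.3, 1196 and 1218 and 0, 28.4, 11.4 and 22.7 against 4139.9, 3780.5 and 3196. Ldha, the other subunit, was at 40098, 6207, 28895 and 6093 against 13595, 7917 and 7806 and was not called (adjusted p = 0.46 in limma), with libraries 1 and 3 above and libraries 2 and 4 below E13.5.

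Of 18 arterial, venous and lymphatic genes tested, 6 were higher and 8 lower, against the same shares of all genes, with a median of -0.40 that turned to 0.09 under quantile scaling. Hey1, a Notch target of arteries that progenitors also express, was at 88.7, 136, 125 and 152 against 1168, 1950.1 and 1944 (log2 difference -3.73 ± 0.26 (SE), adjusted p = 1.2e-05 in limma), and Vcam1, a leukocyte adhesion molecule, at 57.1, 301, 54.3 and 277 against 3567, 4979 and 4831 (log2 difference -5.11 ± 0.66 (SE), adjusted p = 2.8e-04 in limma). Pdpn (podoplanin), found on lymphatic ECs and on mesenchyme, was at 0, 4.37, 0 and 5.05 against 6217, 6492 and 6655. These 3 were lower in every treated library. Efnb2, the arterial ephrin, was at 2656, 2255, 2962 and 1772 against 2318, 2232 and 2322 (95% interval of the log2 difference -0.36 to 0.46), and Plvap, which forms the diaphragms of fenestrae, was higher at 745, 1369.5, 294 and 1451 against 127, 108 and 79.2 (log2 difference 2.97 ± 0.54 (SE), adjusted p = 0.0017 in limma). Foxj1, the ciliary factor of ependymal cells, was lower at 7.68, 13.1, 8.11 and 13.9 against 1128, 1666 and 1597 (log2 difference -6.99 ± 0.30 (SE), adjusted p = 1.9e-06 in limma), the most separated of 10 epithelial and choroid plexus genes tested, of which 6 were lower and 2 higher.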
